A study of Arabidopsis thaliana with 6 samples.

Results

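The regions described here are ChIP-seq peak regions on the nuclear chromosomes of Arabidopsis thaliana whose assigned gene has no protein database match in the authors' annotation. They were found by the description that the deposited lists give each gene: where other genes carry a protein hit, these carry an empty marker. Peaks with that marker on chromosomes 1 to 5 that shared at least 1 bp were merged, which gave 4946 regions at 3201 genes, of 17220 nuclear regions at 12573 genes in all. Of the 3201 genes, 2289 are typed protein-coding in the RefSeq gene table of TAIR10.1, 555 lncRNA, 154 tRNA, 70 miRNA, 52 other ncRNA, 32 snoRNA, 26 snRNA, 21 antisense RNA and 2 rRNA. The marker therefore does not mean non-coding: most of these genes are typed protein-coding all the same. Their median length was 928 bp, against 1862 bp for all genes that the lists assign.

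Anti-FLAG ChIP was made from seedlings of 2 genotypes: pCND1-Flag in the cnd1-3 mutant background, called CND1-FLAG here, and Col-0, the wild type with no FLAG tag. Each genotype had 2 ChIP libraries and 1 input, all from chromatin fixed in 1% formaldehyde for 10 minutes. The labels give no seedling age, do not say what drives the transgene beyond its name or how many lines were used, and do not say whether replicates were grown apart, so the spread between libraries may be technical. Peaks in Col-0 lists arose without any tagged protein.

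Small RNA genes are read by different polymerases. In plants as in other eukaryotes, tRNA genes and the U6 snRNA gene are transcribed by RNA polymerase III, the other spliceosomal snRNA genes and miRNA genes by RNA polymerase II, and the large ribosomal RNA genes by RNA polymerase I. Plant snoRNA genes often stand in clusters or inside host genes for ribosomal and translation proteins. Pericentromeres of Arabidopsis are rich in transposon-derived loci, many of which are annotated as pseudogenes, and hold few active genes.

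CND1-FLAG lists held 3667 and 2893 peaks at these genes in replicates 1 and 2, and Col-0 lists held 1639 and 1524. The CND1-FLAG mean of 3280 ± 547 peaks was 2.07 times the Col-0 mean of 1582 ± 81.3 (SD, n = 2 each). Both CND1-FLAG values lay above both Col-0 values, with p = 0.333 in an exact permutation test, two-sided, the smallest that 2 against 2 libraries allow. As a share of all nuclear peaks the members made up 28.4% and 27.8% of the CND1-FLAG lists, against 26.6% of each Col-0 list, a difference of 1.43 percentage points (exact permutation p = 0.333). So the excess in number was nearly that of the whole lists, and the share was higher by a small amount that turned round under some stricter cutoffs. It was 1.45 points lower in CND1-FLAG among peaks with a −log10 q of at least 5. With a fold of at least 2 it stayed 0.593 points higher. The total read number of each library is not given in the sources used here; at the median member summit 75 and 69 ChIP fragments overlapped in the CND1-FLAG lists, against 124 and 126 in the Col-0 lists.

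Fold enrichment, the authors' ratio of a summit's pile-up to its local background, is a value within a list and depends on the depth of that list. Median fold at member peaks was 1.91 and 1.90 in the CND1-FLAG lists, where the other nuclear peaks had 1.93 and 1.91. In the Col-0 lists member peaks had 1.68 and 1.68 and the other peaks 1.66 and 1.66. Members minus others was therefore −0.022 and −0.011 in CND1-FLAG, below 0, and 0.023 and 0.026 in Col-0, above 0 (difference −0.041, exact permutation p = 0.333). With distal intergenic peaks left out, members were above the others in all 4 lists, at 1.95 against 1.94 and 1.93 against 1.92 in CND1-FLAG, and at 1.68 against 1.65 and 1.69 against 1.65 in Col-0.

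**Figure D1:**
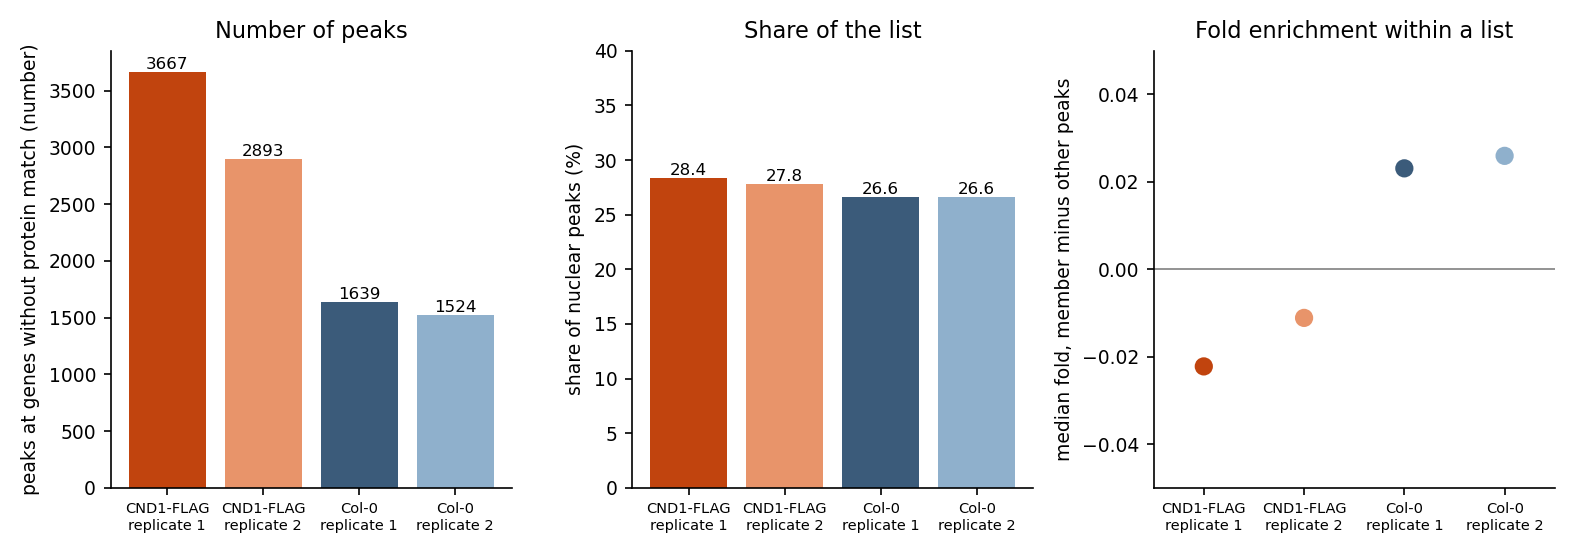
Peaks at genes without a protein match in each list: their number (left), their share of nuclear peaks in percent (middle) and their median fold minus that of the other nuclear peaks (right), 1 bar or point per library. Both CND1-FLAG lists hold more member peaks than both Col-0 lists (3667 and 2893 against 1639 and 1524), while the shares span only 26.6% to 28.4%.

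Tagged-specific means here that a region had peaks in replicates 1 and 2 of CND1-FLAG and none in Col-0. Of the 4946 member regions 1120 were tagged-specific, 22.6%, against 23.3 percent of all nuclear regions. Another 1104, 22.3%, were shared, held by both CND1-FLAG lists and by 1 or both Col-0 lists, against 23.4 percent of all nuclear regions; 650 of them had a peak in all 4 lists. In both Col-0 lists alone were 136 regions, 2.75%, against 3.33 percent of all. The remaining 2586 regions lay in other combinations, among them 1097 in CND1-FLAG replicate 1 alone and 495 in CND1-FLAG replicate 2 alone. These shares are near those of the whole series, so the members as a body did not stand apart in class. The counts depend on list length: with the lists of equal length 405 members were tagged-specific and 390 in both Col-0 lists alone, and with CND1-FLAG replicate 2 left out, where 1 list suffices, 2224 were tagged-specific. Col-0-only members numbered 261, 363 and 400 without CND1-FLAG replicate 1, Col-0 replicate 1 or Col-0 replicate 2. Median width was 524 bp for tagged-specific, 696 bp for shared and 538 bp for Col-0-only member regions.

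Few tagged-specific regions were strong, members or not. Of the 1120 members 311, 27.8%, reached a fold of at least 2 in both CND1-FLAG lists, against 28.9% of tagged-specific regions of the series. A fold of at least 3 in both was reached by 18 members, 1.61%, against 1.17% of the series. The median fold of tagged-specific members was 1.92 and 1.90 in CND1-FLAG replicates 1 and 2, and that of shared members in the same lists was 2.03 and 1.97. Shared members reached a fold of at least 3 in both CND1-FLAG lists at 90 of 1104 regions, 8.15%, against 7.06% of shared regions of the series. The authors' calling threshold stood at a −log10 q of about 1.3 in every list, and just inside it in both CND1-FLAG lists lay chr5:12771553-12772037, assigned to AT5G33806, with −log10 q of 1.35 and 1.5, and chr3:12212026-12212530, assigned to the lncRNA gene AT3G06055, with 1.37 and 1.3. Both have folds between 1.49 and 1.57, 40 to 45 fragments and lie over pseudogene loci in a pericentromere; values just outside the threshold are not used here, since the lists hold called peaks alone.

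Members lay differently from the rest of the series. Within 1 kb of the assigned gene's start were 53.7% of member regions, against 60.7% of all nuclear regions, and 1 to 3 kb away 19.1% against 23.5%. Distal intergenic positions held 24.8% of members, 1225 regions, against 12.7% of all. Of those 1225, 95.5% lay in the pericentromeric windows and 72.2% overlapped a locus typed pseudogene, near the 93.0% and 74.2% of all distal regions, so distal members lay much like other distal regions. Over all members 41.2% were pericentromeric, against 24.0% of all nuclear regions. Distal members also had the weaker peaks in CND1-FLAG lists, with a median fold of 1.82 in both replicates. Distal peaks at the other genes were alike, with 1.82 and 1.83 in CND1-FLAG replicates 1 and 2.

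The position of members differed by class. Of tagged-specific members 32.9% were pericentromeric and 15.7% distal, and of shared members 33.6% and 17.9%, so both classes lay more often on the arms than members as a whole. Tagged-specific regions of the whole series were pericentromeric in 18% and distal in 7.58% of cases. A tagged-specific member covered the start of its assigned gene in 19.3% of cases, against 15.8% for tagged-specific regions of the series.

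**Figure D2:**
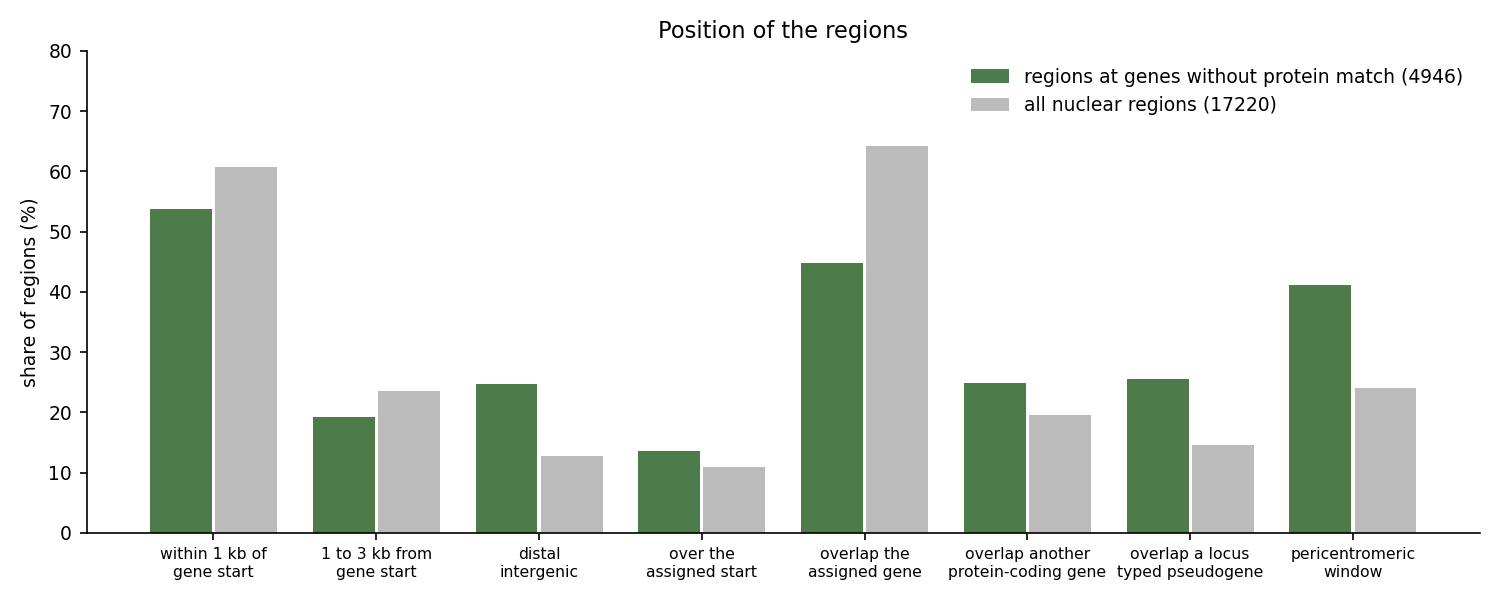
Share of regions, in percent, with each position or overlap, for the 4946 regions at genes without a protein match (green) and all 17220 nuclear regions (grey). Members are more often distal intergenic (24.8% against 12.7%) and pericentromeric (41.2% against 24.0%), and overlap their assigned gene less often (44.8% against 64.3%).

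Assignment to the nearest gene start matters for these genes. Only 44.8% of member regions overlapped the gene they were assigned to, against 64.3% of all nuclear regions, and 24.9% overlapped another protein-coding gene, against 19.5%. A peak named for a tRNA or lncRNA gene can thus lie in the promoter of a coding neighbour, and which of the 2 genes it belongs to cannot be told apart from the lists. Overlapping genes are therefore named with many of the regions below, but not with all. A region given without one can still overlap a coding neighbour.

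Peaks over the start of the assigned gene took up more of the CND1-FLAG lists than of the Col-0 lists. Among member peaks they were 15.7% and 15.5% in CND1-FLAG, against 9.95% and 11.5% in Col-0, a difference of 4.85 percentage points (exact permutation p = 0.333, the smallest possible). Among the other nuclear peaks the shares were 11% and 10.8% in CND1-FLAG and 5.21% and 5.60% in Col-0. Members and other genes thus had this difference alike, and members the higher share in every list. With the lists of equal length the difference among members was 9.19 points.

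The strongest tagged-specific member by its own peaks was chr1:28143942-28145010, which covers AT1G74929, a coding gene of 102 bp, and overlaps ORA47, an ERF transcription factor gene of the jasmonate and wound response. Its fold was 7.87 and 8.0 in CND1-FLAG replicates 1 and 2, with 404 and 375 fragments at the summit, and neither Col-0 list had a peak. All other regions of the 20 named by rank had folds of 5.08 or less in both lists.

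At chr3:20736602-20737094, over U5.1b, a gene for the U5 snRNA of the spliceosome, fold was 5.08 and 4.16 in CND1-FLAG and no Col-0 peak was called. That region also overlaps SUE4. The region chr3:20813311-20813809 covers AT3G56085, a tRNA-Lys gene, and overlaps no other gene. Its fold was 4.28 and 3.83 in CND1-FLAG, with 179 and 144 fragments, and no Col-0 peak was called there either. These were the only small RNA genes among the 20 strongest tagged-specific members; the other 18 are typed protein-coding.

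Of those 20 regions, 17 lay within 1 kb of the assigned start, 11 covered it, and 6 overlapped another protein-coding gene. Their fold ranged over 2.89 to 7.87 in CND1-FLAG replicate 1 and 2.84 to 8.0 in replicate 2. AT2G41650 (chr2:17362499-17363798) had 4.26 and 3.91, AT2G03230 (chr2:972785-973541) 3.99 and 3.5, and AT3G19030 (chr3:6563936-6564414) 4.15 and 3.24. The region of AT2G41650 also overlaps its neighbour AT2G41640, and that of AT2G03230 its neighbour AT2G03240. AT1G68680 (chr1:25783515-25784005) had 3.60 and 3.57, but its region lies in the gene AT1G68670, at −1502 bp from the assigned start (upstream).

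A pair of neighbouring genes on chromosome 4 was marked at both starts. AT4G27657 (chr4:13812877-13813508) had a fold of 3.39 and 3.44 in CND1-FLAG, and AT4G27654 (chr4:13811544-13812260) 3.2 and 3.52; each region overlaps its own gene alone. IQD22, a member of the calmodulin-binding IQ-domain family, had 3.05 and 3.03 at chr4:12087273-12087897, inside the gene. The region assigned to AT3G18800 (3.13 and 3.03) lies over PERK6, a receptor-like kinase gene of the proline-rich extensin-like family. AT4G25170, AT5G65925, AT2G27260, AT1G01305, AT5G21020, AT4G30880, AT1G25275 and AT5G13100 make up the rest on the arms, with folds from 2.84 to 3.73, and each of these 8 regions overlaps its assigned gene alone.

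One of the 20 is unlike the others. The region assigned to AT4G06479, chr4:3060839-3061238, is distal, at −6291 bp from the assigned start, in the pericentromere of chromosome 4 over the pseudogene AT4G06477. Its fold was 3.10 and 3.23 in CND1-FLAG with 356 and 339 fragments, which exceeds the pile-up of every other region of the 20 but AT1G74929. At a fold near 3 this pile-up stands on a local background higher than at the other 19.

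**Figure D3:**
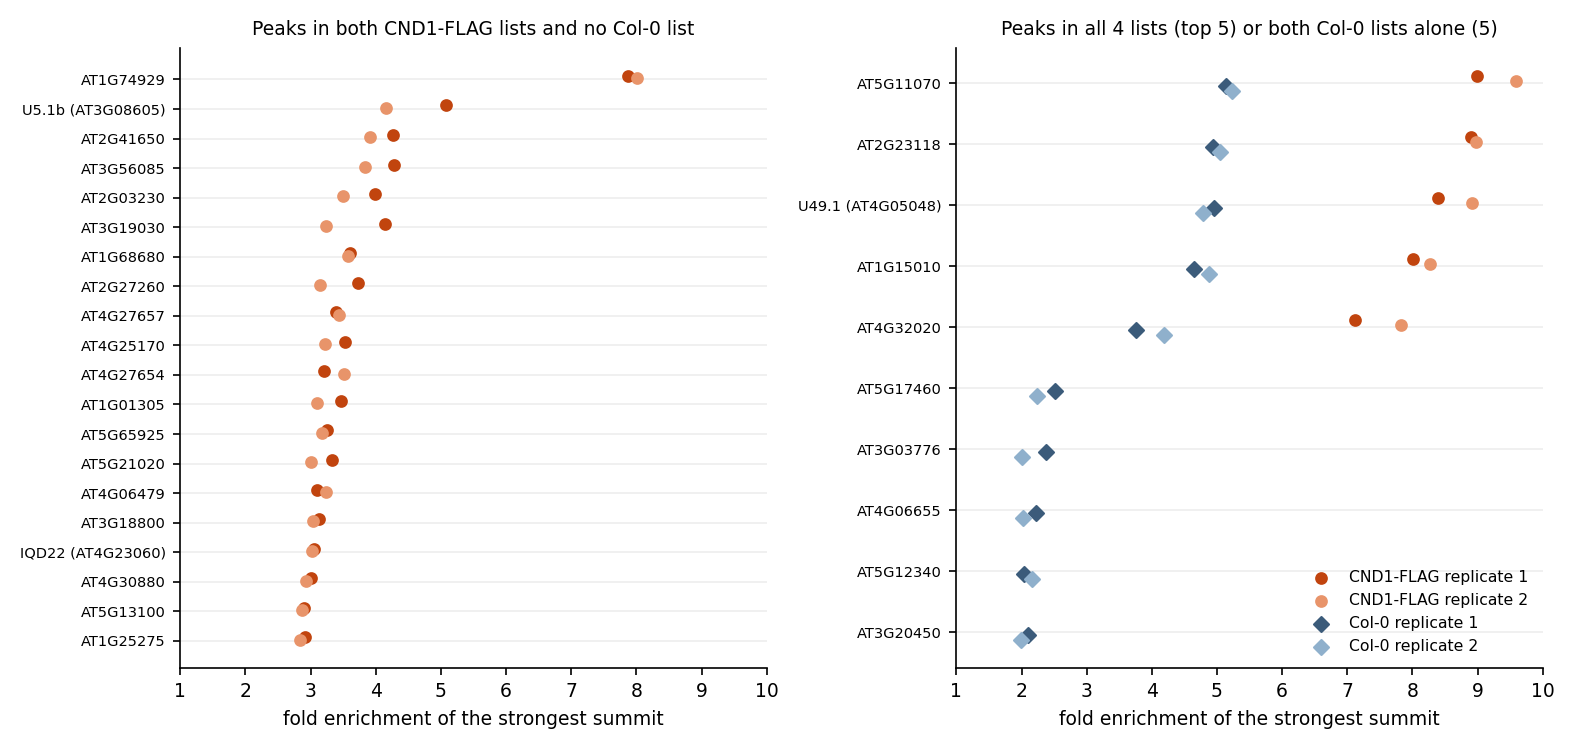
Fold enrichment of the strongest summit in each list (CND1-FLAG circles, Col-0 diamonds) for the 20 strongest tagged-specific regions (left) and for the 5 strongest regions of all 4 lists and of both Col-0 lists alone (right), by assigned gene. On the left AT1G74929 stands at 7.87 and 8.0 and the others at 5.08 or less; on the right the regions of all 4 lists have folds of 7.12 to 9.59 in CND1-FLAG and 3.76 to 5.24 in Col-0.

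The highest folds of all members lay at regions that Col-0 lists held too. AT5G11070 (chr5:3516137-3517120) had 8.98 and 9.59 in CND1-FLAG, and 5.14 and 5.24 in Col-0. AT2G23118 (chr2:9841828-9843603, which also overlaps AT2G23120) had 8.89 and 8.98 in CND1-FLAG, and 4.95 and 5.05 in Col-0. U49.1, a snoRNA gene of a cluster on chromosome 4 (chr4:2586723-2589604), had 8.39 and 8.91 in CND1-FLAG, and 4.96 and 4.78 in Col-0; the region also covers UBQ11, a polyubiquitin gene. AT1G15010 (chr1:5171065-5172149) had 8.01 and 8.27 in CND1-FLAG against 4.65 and 4.87 in Col-0, and AT4G32020 (chr4:15487846-15489187) 7.12 and 7.82 against 3.76 and 4.19.

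All 5 cover the start of the assigned gene, and they ranked near the top of the members in all 4 lists. Fragments at these summits were of one order in both genotypes, 343 to 540 in CND1-FLAG and 468 to 579 in Col-0. The Col-0 counts rest on scale factors of 0.723 and 0.739 for pile-ups before the fold was taken. Both factors were fitted here from fold and p. Folds of different lists are given side by side and were not tested against each other.

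Regions of both Col-0 lists alone were weak. The 5 strongest were AT5G17460 (chr5:5757490-5758293) with folds of 2.52 and 2.23, AT3G03776 (chr3:954076-954480) with 2.38 and 2.01, AT4G06655 (chr4:3865082-3866007) with 2.23 and 2.03, AT5G12340 (chr5:3992882-3993445) with 2.04 and 2.16 and AT3G20450 (chr3:7130872-7131250) with 2.1 and 1.99. No fold in this class exceeded 2.52. Of these 5 regions 4 overlap their assigned gene, and the region of AT4G06655 lies over a pericentromeric pseudogene.

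By type of gene, tRNA genes had the highest share of tagged-specific regions among the types with more than 10 regions. Of 195 regions assigned to tRNA genes 62 were tagged-specific, 31.8%, against 23.3% of all nuclear regions. Another 39 were shared, and 4 lay in both Col-0 lists alone. Transfer RNA genes carried 147 and 130 peaks in the CND1-FLAG lists, against 46 and 42 in the Col-0 lists. The CND1-FLAG mean of 138.5 ± 12 was 3.15 times the Col-0 mean of 44.0 ± 2.83 (SD, n = 2 each), where all member peaks differed 2.07 times. Peaks at snoRNA genes differed by a similar factor, 2.95 times.

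As a share of member peaks tRNA genes made up 4.01% and 4.49% in CND1-FLAG, against 2.81% and 2.76% in Col-0, a difference of 1.47 percentage points (exact permutation p = 0.333). Both CND1-FLAG shares lay above both Col-0 shares. Tests by gene type were not planned. The difference was 2.27 points with the lists of equal length and 1.95 points without the pericentromeric windows. Read over genes and not over regions, tRNA genes were no richer than others: 58 of 625 nuclear tRNA genes, 9.28%, had a tagged-specific region, against 11.2 percent of all nuclear genes of the assigned types, and 155, 24.8%, had a peak in any list, 154 of them as members, against 38.6 percent.

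A tRNA gene is short, with a median of 73 bp here, so most peaks beside one also reach another gene. Of the 195 regions 96 overlapped the tRNA gene itself, 93 covered its start and 124 overlapped another protein-coding gene. Among the 62 tagged-specific ones 33 covered the start. By amino acid, 15 of 26 tRNA-Asp genes had a region, with 34 regions in all, the highest share of the 20 amino acids, and 7 of 75 tRNA-Tyr genes, the lowest; large and small families both had low shares, such as 10 of 66 tRNA-Pro genes and 4 of 30 tRNA-Val genes. Copies of a tRNA family can be nearly identical, and how reads were placed among them was not stated, so counts of single copies are uncertain.

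**Figure D4:**
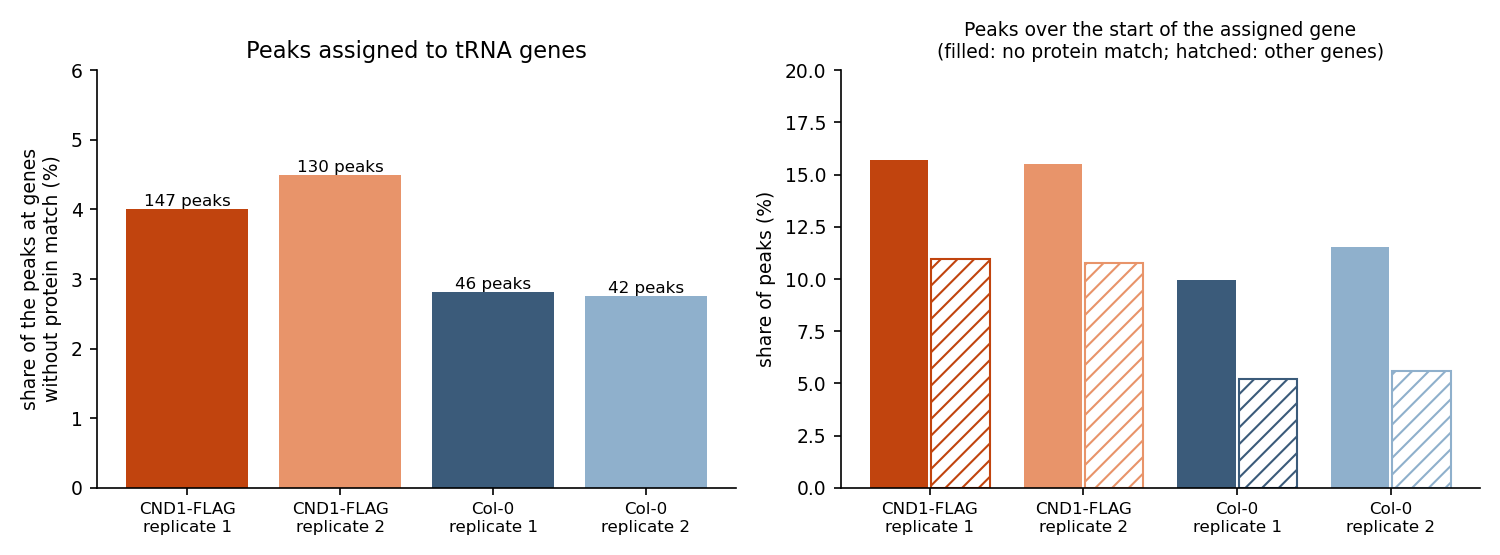
Share of member peaks assigned to tRNA genes in each list, with the number of peaks (left), and share of peaks over the start of the assigned gene for members (filled) and other genes (hatched) (right), in percent, 1 bar per library. Both shares are higher in the 2 CND1-FLAG lists than in the 2 Col-0 lists: tRNA genes hold 4.01% and 4.49% against 2.81% and 2.76%.

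The strongest tRNA regions were shared. AT3G48515, a tRNA-Tyr gene at chr3:17974421-17976732, had folds of 8.71 and 9.12 in CND1-FLAG, and 3.65 and 3.32 in Col-0; the region also overlaps CYP94B3, which encodes an enzyme that oxidizes jasmonoyl-isoleucine. AT1G79240, a tRNA-Arg gene, lies in a region of 6425 bp (chr1:29803329-29809753) with 6.63 and 5.91 in CND1-FLAG, and 4.46 and 4.19 in Col-0, which also overlaps MST1, a sulfurtransferase gene. AT4G26675, a tRNA-Ala gene (chr4:13453895-13455260), had 4.43 and 4.58 in CND1-FLAG, and 1.72 and 1.56 in Col-0. AT1G53220, a tRNA-Ile gene (chr1:19845553-19848301), had 4.59 and 4.43 in CND1-FLAG, and 1.71 and 1.73 in Col-0. All 4 regions also overlap a protein-coding gene, unlike the tRNA-Lys gene AT3G56085 above.

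Of 82 snRNA genes, which encode RNAs of the spliceosome, 26, 31.7%, had a peak in any list, all as members. Over all nuclear genes of the assigned types the share was 38.6%. The 27 regions gave 21 and 19 peaks in CND1-FLAG, against 10 and 9 in Col-0; 7 were tagged-specific and 8 shared, and none lay in both Col-0 lists alone. The tagged-specific share was 25.9%, near the 23.3% of all nuclear regions. The tagged-specific ones sat at gene starts in 6 of 7 cases. Besides U5.1b they include U1.5 (chr1:2537789-2538428), with folds of 2.76 and 2.82 in CND1-FLAG, and U1.6 (chr3:1681680-1682151), with 2.38 and 2.64. The shared ones include U4.8 (chr5:9494066-9494754), with 2.74 and 2.14 in CND1-FLAG and 1.36 and 1.47 in Col-0, in a region that also holds U1.9. U6.10p (chr3:16794037-16794974) had 2.61 and 2.19 in CND1-FLAG and 1.56 in Col-0 replicate 1 alone, 1234 bp from its start. Of the 27 regions 19 overlapped a protein-coding gene, so an snRNA peak was seldom free of a coding neighbour.

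Of 287 snoRNA genes, whose RNAs guide the modification of ribosomal RNA, 33, 11.5%, had a peak in any list, 32 of them as members. Over all nuclear genes of the assigned types the share was 38.6%. Of the 48 member regions 11, 22.9%, were tagged-specific, against 23.3% of all nuclear regions, and 8 were shared. The peaks numbered 36 and 29 in CND1-FLAG against 11 and 11 in Col-0. As a share of member peaks this was 0.982% and 1.00% in CND1-FLAG, against 0.671% and 0.722% in Col-0 (exact permutation p = 0.333). Only 6 of the 48, 12.5%, overlapped the assigned gene, against 44.8% of all member regions. The region assigned to U60.1F (chr5:21296243-21296632) had 2.52 and 2.0 in CND1-FLAG. It overlaps FIB1, the gene of the snoRNA-binding protein fibrillarin, and does not reach the snoRNA gene, whose start is 527 bp away. AT2G04955 (chr2:2184688-2185157) had 2.33 and 2.31 in CND1-FLAG, and AT2G08370 (chr2:12881306-12881820) 2.09 and 2.34, with no Col-0 peak at either. The region assigned to AT1G07957 (chr1:20260545-20261254) had 1.96 and 2.08 in CND1-FLAG, and 1.51 and 1.58 in Col-0. It overlaps EIF4A-2, a gene of a translation initiation helicase, and not the snoRNA gene.

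Both member regions at rRNA genes were tagged-specific and had the deepest pile-ups of any member. All 4 nuclear rRNA genes had a tagged-specific region when peaks of any gene were counted, and 2 of the 4 were members. Over all nuclear genes of the assigned types 11.2% had such a region. AT3G41768 (chr3:14197944-14198380) had folds of 1.82 and 2.01 in CND1-FLAG with 647 and 652 fragments, and AT2G01010 (chr2:3232-3808) 1.64 and 1.83 with 652 and 662 fragments. No Col-0 list had a peak at either. These genes are repeated in long arrays of which the assembly holds a few copies, and 652 and 662 fragments are also the largest member values in their lists. How reads of such repeats were placed and kept is not given in the sources used here.

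MicroRNA genes went the other way in share. Of 326 genes 73, 22.4%, had a peak in any list, 70 of them as members. Over all nuclear genes of the assigned types the share was 38.6%. The 135 member regions gave 100 and 64 peaks in CND1-FLAG, against 55 and 47 in Col-0. As a share of member peaks this was 2.73% and 2.21% in CND1-FLAG and 3.36% and 3.08% in Col-0 (exact permutation p = 0.333). Tagged-specific were 23 regions, 17%, and shared were 30, 22.2%, against 23.3% and 23.4% of all nuclear regions. Only 15 of the 135, 11.1%, overlapped the assigned gene, against 44.8% of all member regions. The regions of MIR852, MIR398b, MIR778 and MIR408 named below do not. Of the 135 regions 57 were distal and 81 pericentromeric.

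Part of these regions lay at MIR854 genes in the pericentromere of chromosome 5, where 5 genes drew 30 of the 135 regions. Among the 30, 4 were tagged-specific, 10 shared and 5 in both Col-0 lists alone. Over all nuclear regions these classes made up 23.3%, 23.4% and 3.33%. Away from there, MIR852 (chr4:8336506-8337217) had 3.37 and 3.38 in CND1-FLAG, and 1.85 in Col-0 replicate 1 alone. MIR398b (chr5:4691199-4691746), whose miRNA targets copper/zinc superoxide dismutase mRNAs, had 2.58 and 3.07 in CND1-FLAG, and 1.94 and 1.86 in Col-0; its region overlaps AT5G14550. MIR778 (chr2:17350291-17351249) had 2.38 and 2.79 in CND1-FLAG with no Col-0 peak, over AT2G41620. MIR5649b (chr1:21360717-21361104) had 2.44 and 2.5 and overlaps no gene, and MIR5651 (chr3:17178294-17178674) had 2.60 and 2.33 and also overlaps RDUF1. A neighbouring region assigned to MIR5651 (chr3:17178866-17180075) was shared. Counting peaks of any gene, it had 2.88 and 2.89 in CND1-FLAG and 2.37 and 2.32 in Col-0. MIR408, chosen after its values were seen because its miRNA targets mRNAs of copper proteins, had 1.66 and 2.31 in CND1-FLAG at chr2:19318553-19318997 and no Col-0 peak.

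Of 8 precursor genes of trans-acting siRNAs 2 had a region, a share near the 24.9% of all ncRNA genes with a peak in any list. TASIR-ARF, whose siRNAs target auxin response factor mRNAs, had a region in both Col-0 lists alone (chr5:23394814-23395455), with folds of 1.57 and 1.71. TAS1C had a peak in Col-0 replicate 1 alone, with a fold of 1.64. TAS1A, TAS1B, TAS2, TAS3 and TAS3b had no region, and no CND1-FLAG list assigned a peak to any precursor named here.

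Long non-coding RNA genes were the second type in number. Of 3480 genes 818, 23.5%, had a peak in any list, 555 of them as members. Over all nuclear genes of the assigned types the share was 38.6%. The 878 member regions gave 644 and 479 peaks in CND1-FLAG, against 261 and 265 in Col-0. Their share of member peaks, 17.6% and 16.6% in CND1-FLAG and 15.9% and 17.4% in Col-0, overlapped between genotypes. Tagged-specific were 186 regions, 21.2%, and shared were 175, 19.9%, against 23.3% and 23.4% of all nuclear regions. The strongest, AT1G08443 (chr1:22867921-22869258), had 6.07 and 6.96 in CND1-FLAG, and 2.38 and 2.40 in Col-0, and lies over AT1G61890 and not over the lncRNA gene. AT3G07315 (chr3:16896219-16898199) had 4.12 and 3.95 in CND1-FLAG and 1.69 and 1.75 in Col-0 by its member peaks. Its region also reaches EXLA1, an expansin-like gene, and HTB9, a histone H2B gene. Peaks in that region assigned to genes with a match had higher folds in Col-0, 2.44 and 2.32. AT2G08780 (chr2:15192436-15194098) had 3.79 and 3.92 in CND1-FLAG and 2.40 and 2.33 in Col-0, and its region also reaches AT2G36220 and APG10. AT1G04963 (chr1:4289218-4289721) overlaps no other gene, with 4.08 and 3.64 in CND1-FLAG and 2.57 in Col-0 replicate 1 alone. AT4G07865 (chr4:13748713-13749699) had 3.5 and 3.64 in CND1-FLAG and 1.63 in Col-0 replicate 1 alone, in a region that also reaches AT4G27510.

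Other non-coding types gave smaller numbers. Of 221 ncRNA genes 55, 24.9%, had a peak in any list, 52 of them as members, where all nuclear genes of the assigned types had 38.6%. Of 118 member regions 27, 22.9%, were tagged-specific, against 23.3% of all nuclear regions, and 21 were shared. AT1G15405 (chr1:5297770-5298292) had 2.59 and 2.5 in CND1-FLAG, AT3G60176 (chr3:22242124-22242497) 2.64 and 2.48 and AT2G01422 (chr2:183866-184409) 2.47 and 2.44, each with no Col-0 peak. AT4G36648 (chr4:17280660-17282747) was the exception among the named regions of all 4 lists in having folds of one size in both genotypes, 2.63 and 2.5 in CND1-FLAG and 2.72 and 2.72 in Col-0. AT5G23155 (chr5:7790552-7791682), in HUA2, had 2.70 and 2.45 in CND1-FLAG and 1.65 and 1.65 in Col-0.

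Of 79 antisense RNA genes 31, 39.2%, had a peak in any list, 21 of them as members, where all nuclear genes of the assigned types had 38.6%. Of 26 member regions 7, 26.9%, were tagged-specific, near the 23.3% of all nuclear regions, and 3 were shared. A protein-coding gene was overlapped by 25 of the 26. AT3G08170, at ZAR1, an immune receptor gene, had 2.23 and 2.26 in CND1-FLAG and 1.60 and 1.75 in Col-0 (chr3:18936164-18937419). AT5G03315 (chr5:7241270-7241659) had 2.17 and 2.59, AT4G00975 (chr4:421901-422318) 2.19 and 2.0 and AT5G02115 (chr5:4472128-4472724, in NACA3) 2.31 and 1.95 in CND1-FLAG, with no Col-0 peak. AT2G09045 (chr2:16463372-16464419) had 2.20 and 1.94 in CND1-FLAG and 1.65 and 1.80 in Col-0. ChIP fragments carry no strand, so these regions cannot be set to the antisense gene or its partner.

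**Figure D5:**
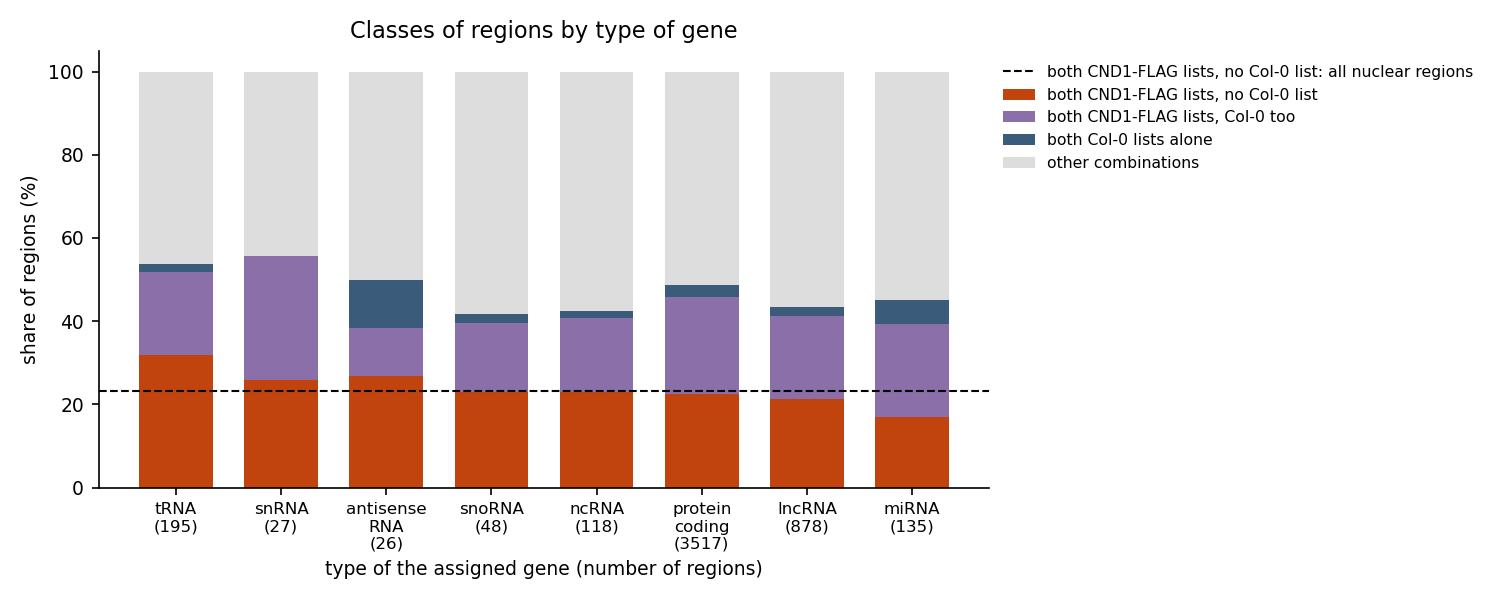
Share of regions in each class, in percent, by type of the assigned gene, with the number of regions under each bar; the dashed line marks the 23.3 percent of all nuclear regions that are tagged-specific. Regions at tRNA genes reach 31.8% tagged-specific and those at miRNA genes 17%; the bars of snRNA and antisense genes rest on 27 and 26 regions.

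Some genes drew several tagged-specific regions. This was so for 99 of the 983 genes with any. The 983 genes drew 1120 tagged-specific regions, and over the series 3637 genes of the assigned types stood against 4011 such regions. How many genes of the series had several is not given here, so the 99 are not read as a trait of members. AT1G41820, AT3G06315 and AT3G31350 had 5 each, and AT1G06973 and AT2G12875 had 4 each, as had MIR401 (AT4G08116). All of these lie in pericentromeric windows, and their regions are mostly distal to the assigned start, as far as 89911 bp in AT3G06315. Their folds were modest: AT3G31350 ranged over 1.57 to 2.27 in CND1-FLAG replicate 1 and 1.64 to 2.29 in replicate 2, and AT1G41820 over 1.71 to 1.92 and 1.62 to 2.26. Such a gene is the nearest start in a stretch with few genes, and the count is one of regions around it.

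A stretch of chromosome 2 at 3.2 to 3.5 Mb, known to hold a large insertion of mitochondrial DNA, had 37 member regions at 25 genes. Of these 26 were tagged-specific, none had a peak in a Col-0 list, and 11 lay in 1 CND1-FLAG list alone. Their fold ranged over 1.16 to 2.19 in CND1-FLAG replicate 1 and 1.25 to 2.33 in replicate 2, with medians of 1.69 and 1.81. Regions at genes with a match in the same stretch were tagged-specific in 16 of 26 cases, and 3 of them had a Col-0 peak. Taking peaks of any gene together, 42 of 63 regions in the stretch were tagged-specific, against 23.3% of all nuclear regions. A high share was thus found in the stretch for members and other genes alike. On the mitochondrial genome itself genes without a protein match had 10 and 12 peaks in CND1-FLAG and 0 in either Col-0 list. Reads of the insertion and of the mitochondrial genome can be alike, and the part of mitochondrial reads in these peaks was not tested. Without the stretch 1094 tagged-specific member regions are left.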

How the data were processed

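Anti-FLAG ChIP-seq peak lists of 2 CND1-FLAG and 2 Col-0 libraries were used; inputs have no list here. Per the submitters' processing notes, the tools were fastp 0.19.11, BWA 0.7.12 and MACS2 2.1.0 on TAIR10; which input went with which list, and the calling threshold, were not stated. The deposited signal value is, per the file headers, the fold enrichment, a ratio; the deposited p and q columns are −log10 values; the deposited score is an integer score; the other deposited columns are positions and distances in bp, counted from 1. Folds are the authors' values of single peaks.

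Summits of 1 interval counted as 1 peak. Member peaks were merged at 1 bp of overlap, and a list held a region if any of its nuclear peaks overlapped it. The 3201 gene identifiers were all found in the RefSeq gene table of TAIR10.1, used for types, names and overlaps; 86.1% had the same start and end as in the lists. Pericentromeric windows were 12 to 18, 1 to 7, 11 to 17, 1 to 6 and 9 to 16 Mb of chromosomes 1 to 5. Pile-ups were solved from fold and Poisson p within 0.002 of −log10 p, which gave whole fragments for 99.987% to 100% of summits in each list; 1 scale factor, 0.723 and 0.739, was fitted per Col-0 list. They cover called summits, not library totals, and carry counting error besides. Genotypes were compared over libraries by exact two-sided permutation of the difference of means; shares of regions have no test. The self-test on simulated lists put 1914 of 1914 regions in their class and recovered 497 of 497 and 495 of 495 pile-ups. Simulated loci stood far apart without crowded peaks, and the pile-ups were drawn from the formula being solved. The self-test thus checked the code alone, not crowded regions of the real lists. Python 3.11.15, numpy 2.4.6, pandas 2.3.3, scipy 1.17.1 and matplotlib 3.10.9 were used.

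Genes were named by rank, the worst rank by fold over the lists concerned: the 20 best tagged-specific regions, 5 of all 4 lists, 5 of both Col-0 lists alone, up to 5 of both CND1-FLAG lists per non-coding type, the 2 just inside the threshold and up to 5 genes with several tagged-specific regions. MIR408, MIR401, trans-acting siRNA genes, MIR854 and the chromosome 2 stretch fall outside this. Members and lists were chosen with earlier results of these data known. No sequence was used here. Alternatives are those of the closing section.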

Additional observations from a re-analysis of the deposited data

Results flagged for a closer look

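The median fold of member peaks minus that of the other nuclear peaks was below 0 in both CND1-FLAG lists and above 0 in both Col-0 lists. The difference between genotypes was −0.0412 on the fold scale; its exact permutation p of 0.333 is the smallest for 2 against 2 libraries. The pooled order of signs was not kept without distal intergenic peaks, where members lay above the others in all 4 lists.

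Peaks outside the nuclear chromosomes entered no comparison above. Mitochondrial genes without a protein match had 10 peaks in CND1-FLAG replicate 1 and 12 in CND1-FLAG replicate 2, and 0 in either Col-0 list, with folds of 1.14 to 1.87 and 1.16 to 1.92. Chloroplast genes without a protein match had 8 and 10 peaks in CND1-FLAG replicates 1 and 2, and 0 in either Col-0 list, with folds of 1.16 to 1.18 and 1.26 to 1.31. These lists hold called peaks alone, so a count of 0 gives no limit on the signal in Col-0.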

How the results depend on the processing

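Of the alternatives, cutoffs on the peaks moved the most. With a −log10 q of at least 5 the share of members in the list was lower in CND1-FLAG by 1.45 points (difference −1.45). The median fold difference turned to 0.0139 at that cutoff. With the top 50% of each list the share difference was −1.23. The share difference stayed positive with a fold of at least 2, at 0.593 points, and with lists of equal length, at 0.131 points. Tagged-specific, shared and Col-0-only members numbered 665, 331 and 56 with a −log10 q of at least 5, 563, 142 and 11 with a fold of at least 2, and 405, 469 and 390 with lists of equal length, and tagged-specific and shared members 537 and 354 with the top 50% of each list. At equal length member peaks differed by 7.5 on average, as the lengths were set equal. As shares, tagged-specific members were 25.6%, 29.0%, 11.5% and 18.4% of member regions for −log10 q, fold, equal length and top 50%, against 27.0%, 30.5%, 11.9% and 20.2% of all nuclear regions. Without the pericentromeric windows, an alternative chosen after seeing the data, 733 members were shared. All 20 named tagged-specific regions stayed so under each alternative but 3: a Col-0 peak within 500 bp, no distal peaks and no pericentromeric windows each kept 19. These 20 were picked for high fold in both CND1-FLAG lists. Cutoffs on the peaks or leaving out a library could therefore hardly change their class, and their staying is no test of it.

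Leaving out 1 library gave 1320 to 2224 tagged-specific, 848 to 1445 shared and 188 to 400 Col-0-only members, since a class needs fewer lists to hold a region; without CND1-FLAG replicate 2 tagged-specific members numbered 2224, and Col-0-only members numbered 261 without CND1-FLAG replicate 1, 363 without Col-0 replicate 1 and 400 without Col-0 replicate 2. Same-numbered libraries taken as pairs, a replicate block, gave the same difference of 1698.5 peaks, 1.43 points and −0.0412, with an exact p of 0.5, the smallest for 2 pairs. Regions held by 1 list of each genotype had the same number in 165 cases and crossed numbers in 162, so no pairing by number showed. The tRNA share and the share of peaks over starts kept their direction under all alternatives tried, at 1.23 to 2.77 and 2.5 to 9.19 points. The search for motifs and its wider window were not run, as no promoter sequence was used here. With 2 libraries per genotype no test could pass 0.05.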
